A study of Mus musculus with 15 samples.

Results

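Reads of the red blood cell microRNAs (miRNAs) mir-144, mir-451 and mir-486 were followed in left ventricular (LV) tissue of 15 mice. All rows of the miRNA count table whose names start with mir-144-, mir-451 or mir-486 were taken, with both arms of each precursor (5p and 3p, named after the end of the hairpin they are cut from). This gave 10 rows of 1836, from the 5 precursors mir-144, mir-451a, mir-451b, mir-486a and mir-486b. Of the 10 rows, 5 held reads, and the other 5 were at 0 in each of the 15 libraries. The members were chosen by name, so that their levels are open to comparison between groups.

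The mice were littermates on a C57BL/6J background in 3 groups of 5, and each mouse gave its own library. The wt and the AGAT-/- mice were untreated, and the third group were AGAT-/- mice that received homoarginine (hArg) from osmotic mini pumps for 4 weeks (AGAT-/-hArg). AGAT (L-arginine:glycine amidinotransferase) forms guanidinoacetate, from which creatine is made, as well as homoarginine. The deletion removes the enzyme from the whole body, not from the heart alone, and touches both products at once. Age and sex of the mice, and whether the ventricles were rinsed free of blood, are not given in the sources used here. By the labels, all 10 wt and AGAT-/- mice were sequenced on lane 8, whereas lane 2 held the supplemented mice alone. An effect of the lane and one of homoarginine cannot be told apart for this reason.

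Mir-144 and mir-451a are transcribed together in erythroid precursors under the transcription factor GATA1, and mir-451a is among the most abundant miRNAs of mature red cells. Its hairpin is too short for Dicer and is cut by the Argonaute protein AGO2 instead, which places the mature miRNA on the 5p side and leaves no regular 3p product. Of mir-144, the 3p arm is the one usually called the mature miRNA, with the mRNA of the antioxidant factor NRF2 among its known targets. Mir-486 lies within the gene of ankyrin-1, a protein that ties the red cell membrane to its skeleton, and is abundant in red cells as well as in heart and skeletal muscle. A mir-486 read from the LV can therefore come from blood or from muscle. Mir-144 and mir-451a are taken here as blood miRNAs, and whether heart cells hold them too was not tested.

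On GRCm38 (GENCODE M21 annotation), Mir144 lies on chromosome 11 from 78073005 to 78073070 on the plus strand. Mir451a follows 99 bases further on, from 78073170 to 78073241, and Mir451b occupies the same positions on the minus strand. None of them overlaps a gene other than its own antisense partner. The mature sequences below, from RefSeq (GRCm38.p6) for 3 of the 5 precursors, are printed 5′ to 3′ with the seed (bases 2 to 8, which pair with target mRNAs) in capitals. They are shown because the rows of this cluster split into 1 with many reads and 5 with none.
mmu-miR-144-5p: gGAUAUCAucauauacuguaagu
mmu-miR-144-3p: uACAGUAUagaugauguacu
mmu-miR-451a: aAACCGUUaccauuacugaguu
mmu-miR-451b: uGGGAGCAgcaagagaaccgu

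None of these 4 seeds occurs in another of the 1738 mature miRNAs of the RefSeq table, so these 4 share no seed with each other. Rows of mir-451a and mir-451b without a printed sequence were not compared. In the hairpins of mir-144 and mir-451a, printed next with the mature parts in capitals, miR-144-5p takes bases 6 to 28 and miR-144-3p bases 43 to 62 of 66. MiR-451a takes bases 17 to 38 of 72 and reaches into the loop. The hairpin of mir-451b is the exact reverse complement of that of mir-451a.
Mir144 hairpin: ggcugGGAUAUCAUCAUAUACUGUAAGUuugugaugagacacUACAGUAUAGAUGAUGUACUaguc
Mir451a hairpin: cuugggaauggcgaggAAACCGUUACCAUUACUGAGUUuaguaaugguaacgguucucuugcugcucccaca

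Mir-486a (Mir486) lies on chromosome 8 from 23142555 to 23142682 on the plus strand, and mir-486b (Mir3107 in the annotation) from 23142573 to 23142662 on the minus strand, inside the former. Both are intronic in Ank1 and in Gm15816. As a hairpin is nearly its own reverse complement, arms of hairpins that overlap on opposite strands can resemble each other or be identical. No mir-486 sequence was at hand, so the arms of mir-486a and mir-486b were not compared. How reads that match both were assigned is not given in the sources used here, so that the division of reads between the mir-486a and mir-486b rows is uncertain, and the sum of the 4 mir-486 rows is given beside them.

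Libraries held between 365634 and 570492 reads on miRNAs, 6817774 in all, and 3 reads corresponded to between 5.26 and 8.21 CPM (counts scaled to a common library size). The labels give 1 library per mouse, and each was counted as a replicate. No pair of libraries of a group was a repeat of the same counts (chi-square over its degrees of freedom from 2.53 to 16.8 in 30 pairs). Levels are given as CPM after TMM normalization over the 15 libraries, which scales libraries to a common composition with factors between 0.893 (wt mouse 4) and 1.07. Intervals of read shares, intervals of ratios of reads summed over a group, and limits drawn from counts of 0 cover counting error only. They leave out the spread between mice.

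No read was counted on mir-144-3p, mir-451a-5p, mir-451a-3p, mir-451b-5p or mir-451b-3p in any library. For each of these rows a count of 0 in 6817774 reads allows a level of up to 0.44 CPM over all libraries, and up to 8.21 CPM in the shallowest library, of AGAT-/- mouse 8. The 5p arm of the same mir-144 hairpin had 20596 reads and was the 17th most abundant of the 1836 rows. Rows at 0 were common in the table. Of 82 precursors with an arm averaging at least 100 reads, 37 (45.1%) had their other arm at 0 in every library, and in 111 of 918 precursors both arms were at 0. Among the rows at 0 were mir-1a-1-3p, mir-1a-2-3p, mir-133a-1-3p and mir-208a-3p, the major arms of cardiomyocyte miRNAs, and mir-16-1-5p, which is abundant in blood. A row at 0 is therefore given here as listed at 0, not as a miRNA absent from the tissue, and mir-451a gives no measure of blood in these libraries. The blood content that can be read from the rows rests on mir-144-5p and, with the reservation of muscle, on mir-486. Whether the mir-144-5p reads came from blood was not tested.

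Together the 5 rows with reads took between 0.651% and 0.804% of a library, and the groups overlapped. The share was 0.679% ± 0.0276 in wt mice, 0.714% ± 0.0545 in AGAT-/- mice and 0.738% ± 0.0471 in AGAT-/-hArg mice (SD, n = 5 each). The lowest share was that of wt mouse 3 at 0.651%. The highest were those of AGAT-/- mouse 8 at 0.804% (95% Wilson interval 0.776% to 0.834%) and of AGAT-/-hArg mouse 14 at 0.802% (0.775% to 0.831%). These raw shares stand before TMM scaling, whose factors were between 1.02 and 1.07 on lane 2 and between 0.893 and 1.03 on lane 8. After scaling, the summed level was 7002 ± 580.4 CPM in wt, 7215 ± 562 CPM in AGAT-/- and 7103 ± 476 CPM in AGAT-/-hArg mice (SD, n = 5 each). The order of AGAT-/- and AGAT-/-hArg mice was thus turned by the scaling, and on the CPM scale no neighbours in the order differed by more than the SD within a group.

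**Figure D1:**
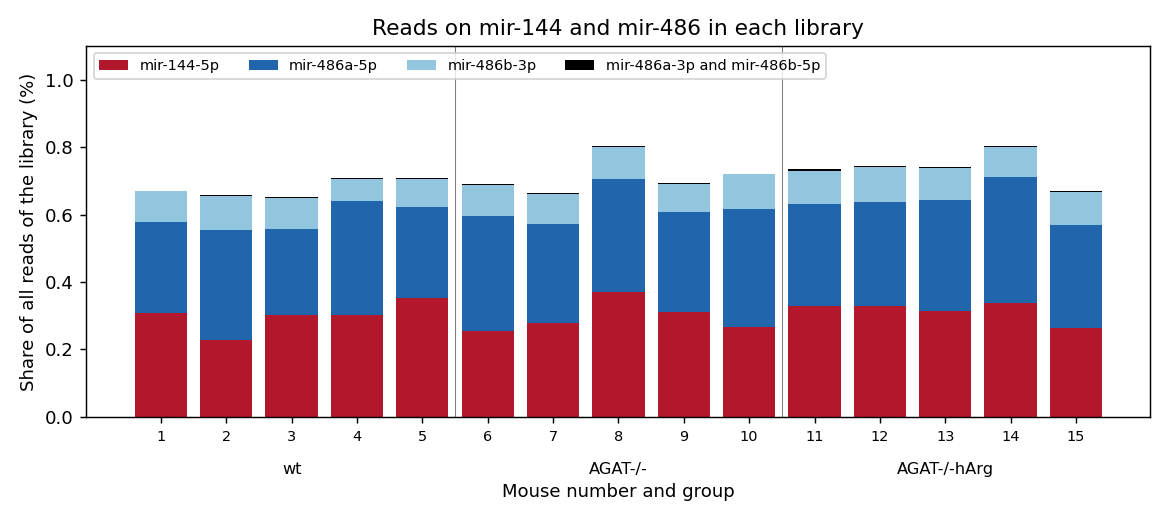
Share of all miRNA reads of a library (%, y axis) on the red cell rows, stacked by row, for each mouse (x axis, grouped by genotype and supplementation). Totals lie between 0.651% (wt mouse 3) and 0.804% (AGAT-/- mouse 8), and mir-486a-3p and mir-486b-5p together form a line too thin to read.

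Mir-144-5p, the passenger arm of the erythroid mir-144 hairpin, was the only red cell row of chromosome 11 with reads, between 1000 and 1881 per library. In wt mice 1 to 5 its level was 2986, 2313, 3099, 3369 and 3607 CPM. In AGAT-/- mice 6 to 10 it was 2605, 2824, 3773, 3153 and 2636 CPM. In AGAT-/-hArg mice 11 to 15 it was 3149.5, 3137, 2934, 3315 and 2608 CPM. The lowest library of all was wt mouse 2 and the highest AGAT-/- mouse 8, a range of 1.63-fold, and each group spanned much of it. Group means were 3075 ± 490 CPM in wt, 2998 ± 485 CPM in AGAT-/- and 3029 ± 271 CPM in AGAT-/-hArg mice (SD, n = 5 each).

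Mir-486a-5p, the guide arm of muscle and red cell mir-486, was the most abundant of the 10 rows with 21203 reads in all (1112 to 1752 per library) and ranked 16th in the table. In wt mice 1 to 5 its level was 2635, 3339.6, 2599.5, 3801 and 2729 CPM. In AGAT-/- mice 6 to 10 it was 3445, 2984, 3398, 3010.0 and 3440.1 CPM. In AGAT-/-hArg mice 11 to 15 it was 2924, 2922, 3057, 3666 and 2993 CPM. The range of the wt mice enclosed every AGAT-/- value, with 3 libraries below and 2 within or above it, and in AGAT-/-hArg mice a single library, that of mouse 14, stood above the rest. Group means were 3021 ± 530 CPM in wt, 3255 ± 237 CPM in AGAT-/- and 3112 ± 314 CPM in AGAT-/-hArg mice (SD, n = 5 each).

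Mir-486b-3p, named after the hairpin on the opposite strand of the same Ank1 intron, had 6293 reads (293 to 599 per library). In wt mice 1 to 5 its level was 879, 1025, 918, 741 and 864 CPM. In AGAT-/- mice 6 to 10 it was 952, 898, 979.5, 835 and 1034 CPM. In AGAT-/-hArg mice 11 to 15 it was 940.3, 999, 896, 868 and 961 CPM. Again the lowest library was a wt one, mouse 4, which had the highest mir-486a-5p level of all 15 mice. Group means were 885 ± 102 CPM in wt, 939.9 ± 76.4 CPM in AGAT-/- and 933 ± 51.9 CPM in AGAT-/-hArg mice (SD, n = 5 each).

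Summed over its 4 rows, mir-486 was at 3927 ± 499.7 CPM in wt, 4217 ± 309 CPM in AGAT-/- and 4074 ± 276 CPM in AGAT-/-hArg mice (SD, n = 5 each), and these groups overlapped too. The rows mir-486a-3p and mir-486b-5p held few reads, under a division of reads between mir-486a and mir-486b that is uncertain. Mir-486a-3p had between 4 and 17 reads per library, with 21.0 ± 8.10 CPM in wt, 20.1 ± 8.15 CPM in AGAT-/- and 23.5 ± 8.46 CPM in AGAT-/-hArg mice (SD, n = 5 each). Mir-486b-5p had 17 reads in 15 libraries and at most 0.257% of the mir-486 reads of a library. Of these, 1 fell in wt, 3 in AGAT-/- and 13 in AGAT-/-hArg libraries. The wt read came from mouse 1, and the AGAT-/- reads from mouse 8 (1 read) and mouse 10 (2 reads). In AGAT-/-hArg mice 11 to 15 the row had 0, 3, 3, 2 and 5 reads. The AGAT-/-hArg library without reads, mouse 11, lay level with the 4 wt and 3 AGAT-/- libraries at 0.

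**Figure D2:**
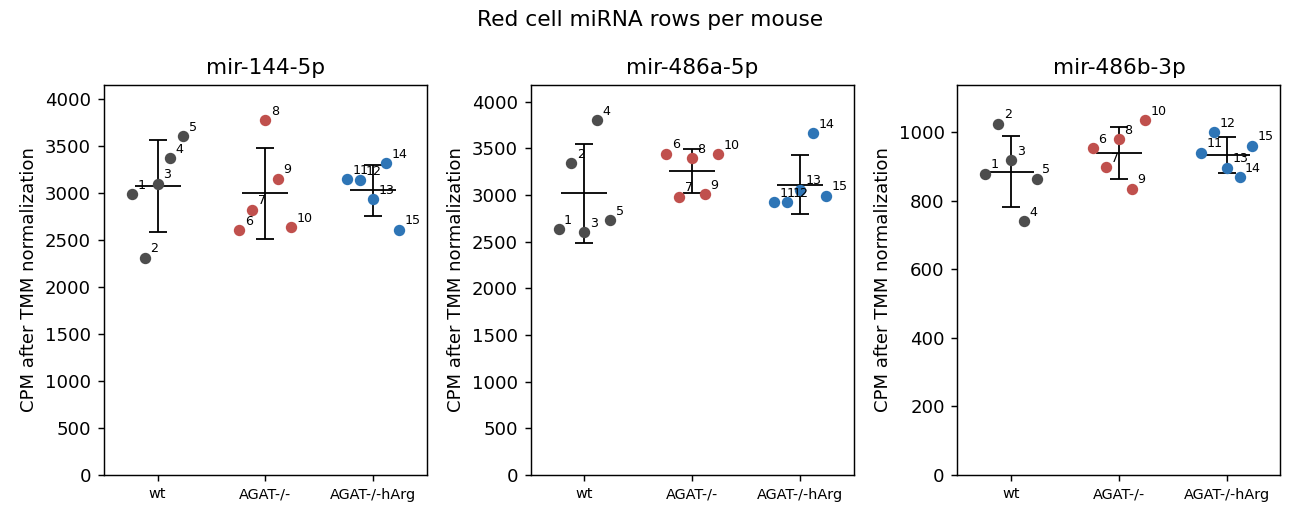
Level of mir-144-5p, mir-486a-5p and mir-486b-3p (CPM after TMM normalization, y axis from 0) in each mouse, with points numbered by mouse, a horizontal bar for the group mean and whiskers for the SD (n = 5). The points of the groups overlap in each panel, and wt mouse 4 is highest for mir-486a-5p and lowest for mir-486b-3p.

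AGAT-/- mice were compared with wt mice for the effect of the missing enzyme. With edgeR's quasi-likelihood test over 562 miRNAs, none of the 4 members tested passed an FDR of at most 0.05 (Benjamini-Hochberg over all miRNAs tested), where 2.14% of the miRNAs tested did. DESeq2 called 0 of the 4 as well, and 0 had an unadjusted p below 0.05 in edgeR, where 10.7% of the miRNAs tested did. Mir-144-5p was at 0.962-fold of wt, with a 95% confidence interval from 0.813 to 1.14 (log2 fold change -0.06, standard error 0.12, FDR = 0.965, edgeR). Mir-486a-5p was at 1.06-fold (0.908 to 1.25, FDR = 0.878, edgeR) and mir-486b-3p at 1.05-fold (0.898 to 1.22, FDR = 0.925, edgeR). A change of these 3 rows by more than the bounds lies outside the 95% intervals, while smaller changes were not detectable with 5 mice a group. With the reads of mir-486a and mir-486b added up arm by arm before the fit, the log2 fold change was 0.09 for the 5p arm of mir-486 (FDR = 0.871, edgeR) and 0.07 for the 3p arm (FDR = 0.933, edgeR). Mir-486a-3p, at 0.914-fold, had a far wider interval (0.553 to 1.51, FDR = 0.969, edgeR).

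AGAT-/-hArg mice were compared with AGAT-/- mice for the effect of supplementation, which coincides with the lane. None of the 5 members tested passed the FDR in edgeR, where 0.690% of 580 miRNAs did, and DESeq2 called none of the rows for which it gave an adjusted p. Mir-144-5p was at 1.01-fold of the AGAT-/- level (0.879 to 1.16, FDR = 0.972, edgeR). Mir-486a-5p was at 0.955-fold (0.849 to 1.07, FDR = 0.942, edgeR) and mir-486b-3p at 0.994-fold (0.870 to 1.14, FDR = 0.972, edgeR). For mir-486a-3p the fold was 1.21 (0.756 to 1.95, FDR = 0.942, edgeR). The 13 against 3 reads of mir-486b-5p, summed over mice, gave a ratio of 4.31 with a counting interval from 1.18 to 23.6. That interval leaves out the spread between mice. This row had more than 10 reads, and so entered the test, only through the group where it was high, so that its direction was set by the filter and its p supports nothing. It was the 1 member of 5 with an unadjusted p below 0.05 (edgeR's quasi-likelihood test, adjusted p = 0.637 over all miRNAs tested), where 7.41% of the miRNAs tested had one.

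In the comparison of AGAT-/-hArg with wt mice, which holds both the genotype and the supplementation, none of the 5 members tested passed the FDR in edgeR, where 2.99% of 569 miRNAs did. Mir-144-5p was at 0.976-fold of wt (0.835 to 1.14, FDR = 0.936, edgeR). Mir-486a-5p was at 1.02-fold (0.878 to 1.19, FDR = 0.944, edgeR), mir-486b-3p at 1.04-fold (0.901 to 1.21, FDR = 0.889, edgeR) and mir-486a-3p at 1.11-fold (0.694 to 1.77, FDR = 0.919, edgeR). Mir-486b-5p, with 13 reads against 1, had a ratio of 12.6 with a counting interval from 1.89 to 536, which again leaves out the spread between mice. It did not pass over all miRNAs, again having entered the test only through the AGAT-/-hArg reads (log2 fold change 2.95, standard error 0.96, unadjusted p = 0.00584, FDR = 0.123, edgeR). It was again the 1 member with an unadjusted p below 0.05, beside 12.5% of the miRNAs tested. Without AGAT-/-hArg mouse 11, the mouse with 0 reads, it passed (log2 fold change 3.26, FDR = 0.0369, edgeR), and without mouse 15, which held 5 of the reads, it had too few reads to be tested. Its AGAT-/-hArg reads all come from lane 2. The 3 comparisons share their groups, and their values are not independent of each other. In each of them the groups overlapped for every member tested, where 3.02%, 2.59% and 4.04% of the miRNAs tested had groups without overlap, in the order given here.

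**Figure D3:**
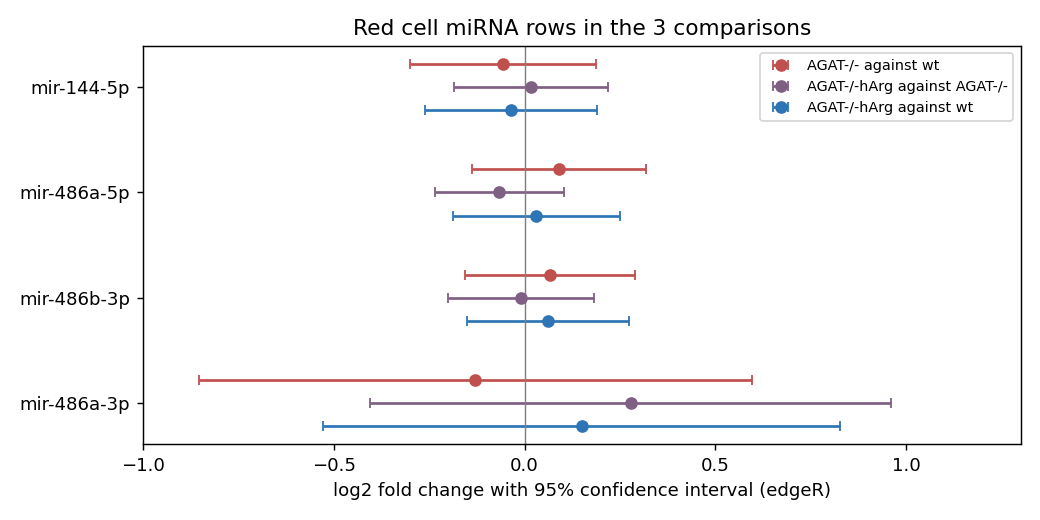
Log2 fold changes (x axis) with 95% confidence intervals from edgeR for 4 red cell rows (y axis) in the 3 comparisons, coloured by comparison. Mir-486b-5p, with 17 reads in all, is not drawn. Its interval in AGAT-/-hArg against wt mice was from 0.95 to 4.94 (FDR = 0.123, edgeR), in a test it entered only through the AGAT-/-hArg reads. Each of the 12 intervals drawn crosses 0, and those of mir-486a-3p are the widest of them.

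To see whether the red cell rows varied together from mouse to mouse, the 3 with a mean of at least 10 reads were compared in log2 CPM over the 15 mice (3 pairs, two-sided permutation tests). The p-values of Pearson's r and Spearman's rho of the 3 pairs were adjusted together (Benjamini-Hochberg). Mir-144-5p and mir-486a-5p were not detectably related, with Pearson's r = -0.07 (permutation p = 0.815, adjusted p = 0.954) and Spearman's rho = -0.02 (permutation p = 0.954). Without AGAT-/- mouse 8 and wt mouse 2, r was -0.10, and on lane 8 alone it was -0.17 (n = 10). Mir-144-5p and mir-486b-3p had r = -0.49 (permutation p = 0.0611) and rho = -0.54 (permutation p = 0.0408), both with an adjusted p of 0.183. Without the same 2 mice r was -0.62 (permutation p = 0.0209), and on lane 8 it was -0.53 (permutation p = 0.118). When total counts replaced TMM, r was -0.19.

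The pair of mir-486 rows, named after overlapping hairpins, had r = -0.08 (permutation p = 0.773, adjusted p = 0.954) and rho = 0.02 (permutation p = 0.944). Leaving out AGAT-/-hArg mouse 14 and wt mouse 4, which lay farthest from the median of mir-486a-5p, turned r to 0.61 (permutation p = 0.0273, n = 13). On lane 8, with wt mouse 4 still present, r was 0.05. In these 2 mice the ratio of mir-486a-5p to mir-486b-3p reads was 4.22 and 5.13, where the remaining 13 libraries lay between 2.83 and 3.62. Lane 2 holds 5 libraries, too few for a value of its own. The ratio of mir-144-5p to the summed mir-486 reads varied from 0.527 in wt mouse 2 to 0.997 in wt mouse 5. Over the 15 mice, the summed levels of mir-144 and mir-486 had r = -0.16, at position 165 of 226 rows when all other rows were ordered by their likeness to mir-144.

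**Figure D4:**
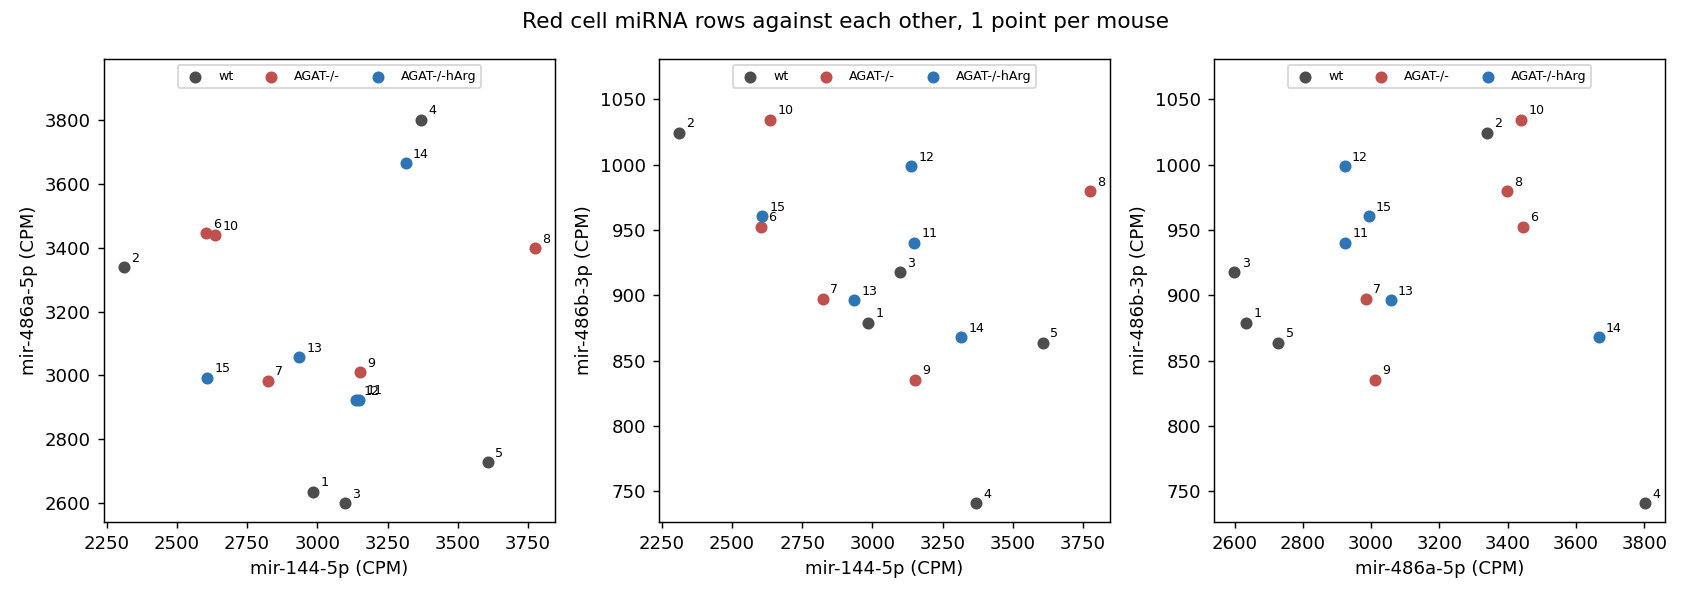
Level of a red cell row against that of another (CPM after TMM normalization on both axes, which do not start at 0) for the 15 mice, coloured by group and numbered by mouse, in 3 panels for the 3 pairs. In log2 CPM the panels have r = -0.07 (mir-144-5p and mir-486a-5p), -0.49 (mir-144-5p and mir-486b-3p) and -0.08 (mir-486a-5p and mir-486b-3p), and wt mouse 4 and AGAT-/-hArg mouse 14 lie apart in the last.

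The rows most like summed mir-144 over the 15 libraries, among 226 rows with a mean of at least 10 reads, were mir-376a-3p (r = 0.60), mir-195a-5p (r = 0.54), mir-322-5p (r = 0.50), let-7c-2-5p (r = 0.48) and mir-6956-3p (r = 0.45). For summed mir-486 they were mir-1839-5p (r = 0.75), mir-7052-3p (r = 0.73), mir-1843a-5p (r = 0.65), mir-8103-3p (r = 0.63) and mir-674-5p (r = 0.63). These are the highest of many coefficients and are given without a test. The 2 sets share no row, and neither holds a row of the other red cell miRNAs listed next. With 5 rows out of 226 in each set, and at most 11 rows with reads on that list, overlap would be rare in any case. No conclusion is drawn from its absence.

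Other miRNAs known to be abundant in red cells or reticulocytes gave 24 rows, 13 of them at 0 in every library. Their summed level was 8342 ± 1324 CPM in wt, 8634 ± 1026 CPM in AGAT-/- and 8200 ± 830 CPM in AGAT-/-hArg mice (SD, n = 5 each). In edgeR, 0 of 9 rows tested passed the FDR in either direction in each comparison. Over all miRNAs tested, 2.14% passed in AGAT-/- against wt, 0.690% in AGAT-/-hArg against AGAT-/- and 2.99% in AGAT-/-hArg against wt mice. Mir-182-5p of this list, which the study with DESeq2 lists as significantly higher in AGAT-/- than in wt mice, had a log2 fold change of 0.37 there (unadjusted p = 0.0260, FDR = 0.366, edgeR). The most abundant rows of the list were mir-92a-2-3p and mir-92a-1-3p, both rows of mir-92a. In AGAT-/- against wt mice the median log2 fold change was 0.02 over this list and 0.01 over the 4 red cell rows tested, beside -0.04 over all 562 miRNAs. In AGAT-/-hArg against AGAT-/- mice the medians were -0.05 for the list, 0.02 for the red cell rows and 0.01 over all, and against wt mice -0.05, 0.06 and 0.02.

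Among the markers of other cells that LV tissue holds, a single row passed the FDR, in AGAT-/-hArg against wt mice, where 2.99% of all miRNAs tested did. In AGAT-/- against wt mice 2.14% did, and in AGAT-/-hArg against AGAT-/- mice 0.690%. On lists this short, a count of 0 or 1 cannot be told apart from these shares. Leukocyte and platelet miRNAs, which blood carries as well, summed to 7084 ± 632 CPM in wt, 6968 ± 739 CPM in AGAT-/- and 7167 ± 543 CPM in AGAT-/-hArg mice (SD, n = 5 each), mostly from mir-146a-5p and mir-155-5p, and 0 of 6 rows passed the FDR in each comparison. The 14 cardiomyocyte rows, 6 of them at 0, summed to 1972 ± 110.5 CPM, 2195 ± 297 CPM and 2293 ± 166 CPM in the same order. Of these, mir-499-5p, from an intron of a cardiac myosin gene, was higher in AGAT-/-hArg than in wt mice (log2 fold change 0.43, FDR = 0.0129, edgeR), and was the row that passed. Its log2 fold change was 0.36 in AGAT-/- against wt mice (FDR = 0.0647, edgeR) and 0.06 in AGAT-/-hArg against AGAT-/- mice (FDR = 0.949, edgeR). The study, with DESeq2, lists this row as significantly higher in AGAT-/- than in wt mice. The cardiomyocyte rows tested had a median log2 fold change of -0.04 in AGAT-/- against wt mice, beside -0.04 over all miRNAs. In AGAT-/-hArg mice the median was 0.08 against AGAT-/- mice (0.01 over all) and 0.14 against wt mice (0.02 over all). Relative to the cardiomyocyte sum, the mean log2 level of mir-144 in AGAT-/-hArg mice was 0.23 below that of wt mice (difference -0.23), where it was -0.01 on the CPM scale, and that of mir-486 was -0.16 in place of 0.06. In AGAT-/- mice the same scaling gave a difference from wt mice of -0.18 in place of -0.03 for mir-144 and of -0.04 in place of 0.11 for mir-486. Smooth muscle miRNAs, led by mir-145a-3p, summed to 10630.0 ± 1218 CPM, 11560.0 ± 1459 CPM and 13240.0 ± 2576 CPM, and endothelial mir-126 rows to at most 29.4 CPM in a library. The liver miRNA mir-122, a marker of plasma, was at 0 for its 5p arm and at 3 reads or fewer per library for its 3p arm. In tissue RNA, fewer red cells in the ventricle and less miRNA per red cell cannot be told apart.

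Between mice of the same group, the SD of log2 CPM was 0.206 for mir-144-5p, 0.173 for mir-486a-5p and 0.128 for mir-486b-3p, beside a median of 0.252 over the 229 rows with a mean of at least 10 reads. Ordered from the steadiest, they stood at positions 87, 65 and 25 of the 229 rows, most of which are less abundant. Among rows within 0.5 log2 CPM of its own level, mir-144-5p was at the variable end, with 8 of 9 other rows steadier. For mir-486a-5p 6 of 9 other rows were steadier, and for mir-486b-3p 6 of 22. Counting error alone corresponds to a coefficient of variation of 2.70%, 2.66% and 4.88%, whereas over the 15 libraries the coefficients were 13.1%, 11.7% and 8.47%. The share of a library on all members together had a coefficient of variation of 6.81%, below that of mir-144 (12.9%) and of mir-486 (8.66%) alone. A sum of parts that do not vary together can be steadier than each part, so no conclusion is drawn from this.

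**Figure D5:**
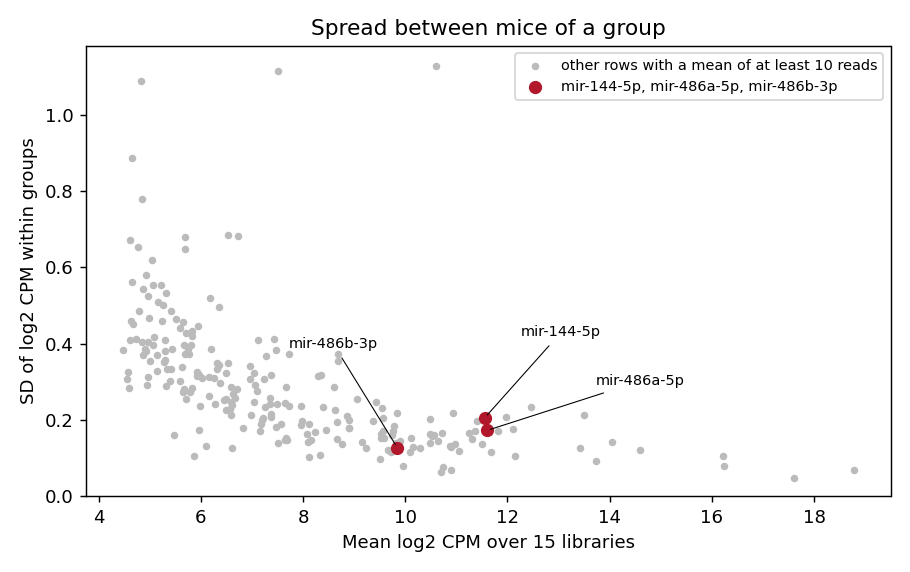
SD of log2 CPM between mice of the same group (y axis) against the mean log2 CPM over the 15 libraries (x axis) for the 229 rows with a mean of at least 10 reads. The red cell rows mir-144-5p (0.206), mir-486a-5p (0.173) and mir-486b-3p (0.128) lie below the median of 0.252, and the SD falls with the level, so that 8 of the 9 other rows near the level of mir-144-5p lie under it.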

How the data were processed

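Small RNA libraries (TruSeq) of LV tissue were sequenced on an Illumina instrument. Using the CLC Genomics Workbench, the authors assigned reads to mouse miRNAs from miRBase, and the deposited values are raw counts, whole numbers of reads per mature miRNA, in all 15 libraries. The miRBase release and the handling of reads with several matches are not given in the sources used here, and the submitters' processing notes name GRCm38. Groups follow the labels. Each pair of groups (5 against 5 mice) was fitted with edgeR 4.0.16 (R 4.3.3; TMM, glmQLFit, glmQLFTest) on rows with more than 10 reads summed over the comparison's libraries, in place of the DESeq2 of the study's methods, which is an alternative (1.42.0). Calls have an FDR of at most 0.05. Log2 CPM used a prior count of 1 and correlations 100000 permutations (Python 3.11.15, scipy 1.17.1). The steps were tested on simulated data. The rows, the cell type lists and the tests were chosen with earlier results of these data known. Named miRNAs are all rows of the 3 miRNAs, from each list the 2 with most reads and those past the FDR, and the 5 most alike rows. Rows at 0 named as examples were chosen after their values were seen. Alternatives were DESeq2, total counts, DESeq2's size factors, other filters, all 15 libraries in 1 fit, the 3 most abundant rows left out, rows summed by arm, the animal number as a covariate, scaling to cardiomyocyte rows and leaving out each mouse. Comparison with rows of like level was added after the values were seen.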

Additional observations from a re-analysis of the deposited data

Results flagged for a closer look

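In 36 sets of 5 values (a measure of the red cell rows in a group), 5 held a library far from the others, with a gap to its neighbour that was a larger part of the whole range than Dixon's 95% critical value. Chance gives about 1 in 20 separate sets, but these share rows and are not separate. In AGAT-/-hArg mice, mouse 14 was apart for mir-486a-5p at 3666 CPM (gap 0.818 of the range) and for the summed mir-486 level at 4564 CPM (gap 0.872). In wt mice, mouse 4 was apart for the ratio of mir-486a-5p to mir-486b-3p reads at 5.13 (gap 0.814), a ratio of raw reads within a library that no scaling enters. In the same group, mouse 1 was apart for mir-486b-5p at 2.18 CPM, which is a single read where the other wt mice had 0. In AGAT-/- mice, mouse 8 was apart for the summed level of all red cell rows at 8184 CPM (gap 0.724), and its library was the shallowest with 365634 reads. Its share of reads before scaling was also the highest of the 15, and the part of depth was not tested.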

How the results depend on the processing

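No paired analysis was possible, because the labels give neither the litter of a mouse nor a pairing between groups. The mouse numbers 1 to 5, 6 to 10 and 11 to 15 are not shared. Likeness between mice of the same litter is therefore not accounted for in the tests. No member passed the FDR in AGAT-/- against wt mice or in AGAT-/-hArg against AGAT-/- mice under any alternative. In AGAT-/-hArg against wt mice the count of members called was 0 under all alternatives but the loss of AGAT-/-hArg mouse 11, which gave 1, mir-486b-5p (log2 fold change 3.26, FDR = 0.0369, edgeR). Over its alternatives the FDR of this row lay between 0.0369 and 0.246, without mouse 15 it had too few reads for the test, and it passes the filter on low counts only through the group where it is high. DESeq2 gave it no adjusted p. Scaling to the cardiomyocyte rows in place of TMM moved the difference between AGAT-/-hArg and wt mice from -0.01 to -0.23 for mir-144 and from 0.06 to -0.16 for mir-486. That between AGAT-/- and wt mice went from -0.03 to -0.18 and from 0.11 to -0.04, the latter with a change of sign, and mir-499-5p, itself higher in AGAT-/-hArg mice, holds 42.6% of the reads of those rows. With the animal number as a covariate, AGAT-/- against wt mice gave -0.25 for mir-144-5p (FDR = 0.575, edgeR) and 0.18 for mir-486a-3p (FDR = 0.931, edgeR), where the values were -0.06 and -0.13. The correlation of mir-144-5p and mir-486b-3p lay between -0.69 and -0.38 with each mouse left out, and passed without AGAT-/- mouse 8 (r = -0.69, permutation test, adjusted p = 0.0183). Over all miRNAs, the number called in AGAT-/-hArg against AGAT-/- mice was 4, but 8 with at least 1 read and 2 with more than 10 reads in every library. Against wt mice it was 17, but 28 with at least 1 read, and 10, 11 and 10 without wt mouse 3, wt mouse 5 and AGAT-/-hArg mouse 15. In AGAT-/- against wt mice it was 12, with 8 to 18 over the alternatives. The cause of these changes was not tested.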

Other observations

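A single row of the red cell miRNAs was related to another red cell list, and in the opposite direction. Over the 15 mice, mir-486a-5p and the summed level of the other red cell and reticulocyte miRNAs had Pearson's r = -0.79 (permutation p = 0.00053) and Spearman's rho = -0.78 (permutation p = 0.00091). Both had an adjusted p of 0.0109, with the r and the rho of 12 relations adjusted together. These relations, of 3 red cell rows with 4 cell type lists, were chosen after the values were seen, and none of the other 11 passed (adjusted p = 0.999, permutation tests). With each mouse left out r lay between -0.86 and -0.73. Without AGAT-/-hArg mouse 14 and wt mouse 4 it was -0.64 (permutation p = 0.0213), and on lane 8 it was -0.78 (permutation p = 0.0111, n = 10). When total counts replaced TMM, r was -0.60 (permutation p = 0.0186), and the relation did not pass the adjustment (adjusted p = 0.223). Mir-92a-2-3p holds 68.3% of the reads of that list and had r = -0.84 with mir-486a-5p by itself (permutation p = 9e-05, rho = -0.79), whereas the list without it had r = -0.44 (permutation p = 0.101, rho = -0.31), which does not differ detectably from 0. Levels within a library are shares of a whole, and the part of this in the relation was not tested.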
